A study of Mus musculus with 4 samples.

Results

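Matrix metalloproteinases (MMPs), ADAMTS enzymes and the tissue inhibitors of metalloproteinases (TIMPs) were followed by their FPKM values in mouse skull bones. All genes whose symbol starts with *Mmp*, *Adamts* or *Timp* and goes on directly with a digit were taken, except *Mmp20*, an enzyme of tooth enamel. This gave 45 of the 23946 genes measured, namely 22 MMPs, 19 ADAMTS enzymes and 4 TIMPs. RNA was measured by bulk RNA-seq in frontal and parietal bones, with the pericranium, bone plate and dura mater together, of C57BL/6J mice at postnatal day 21. The 4 groups were wild-type frontal bone, wild-type parietal bone, *Twist1*+/- frontal bone and *Twist1*+/- parietal bone, where *Twist1*+/- mice carry 1 inactivated copy of a gene for a transcription factor of the skull mesenchyme. RNA came from 12 mice of each genotype, without a statement of how they were divided among libraries, and 1 library of each group was analysed here. FPKM, fragments per kilobase and per fixed number of mapped fragments, is a level corrected for gene length and depth, so levels of different genes can be set side by side on this scale.

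MMPs are zinc-dependent proteases that cut collagens and other proteins of the extracellular matrix. Most are secreted as inactive proenzymes, and the membrane-type MMPs are held at the cell surface. ADAMTS enzymes are secreted metalloproteinases with thrombospondin repeats, and they trim procollagen, cut proteoglycans such as aggrecan and versican, or act on fibrillin and other matrix proteins. TIMPs bind the active sites of MMPs and, for *Timp3*, of several ADAMTS enzymes. In bone, MMP13 is made by osteoblast-lineage cells and hypertrophic chondrocytes, MMP9 by osteoclasts and neutrophils, and MMP14 by osteoblasts, osteocytes and osteoclasts, and these enzymes take part in remodelling of the collagen matrix.

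Since each group had 1 library, no replicate error was available, no test between groups was possible, and the order of values that lie close together cannot be told from their spread. *Twist1* measured 59.0 FPKM in wild-type frontal, 30.4 in *Twist1*+/- frontal, 52.5 in wild-type parietal and 50.7 FPKM under the label *Twist1*+/- parietal. The last of these values does not show the loss of 1 copy, so that library is named by its label throughout. *Fgf23*, a hormone gene of osteocytes, differed greatly between the parietal libraries, with 20.9 FPKM in the wild-type and 0.202 FPKM in the other. *Col1a1* and *Col1a2*, which osteoblasts make in bulk, were listed at 0 in all libraries but wild-type parietal, so a 0 in these files can be a value that was not estimated. Muscle markers (11 genes) summed to at most 3657 FPKM in wild-type parietal, and 118 FPKM in wild-type frontal was the lowest sum. Nasal epithelium markers (10 genes) summed to between 29.9 FPKM in wild-type parietal and 2378 FPKM under the label *Twist1*+/- parietal. The bone cells themselves were present in every library, with the 10 osteoclast markers summing to between 2288 and 8536 FPKM.

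The family was well represented in these bones. Of the 45 genes, 34 (75.6%) reached 1 FPKM in at least 1 library, against 61.6% of all genes, and 6 (13.3%) reached 100 FPKM, against 4.15% of all genes. The 6 were *Mmp2*, *Mmp9*, *Mmp13*, *Mmp14*, *Timp1* and *Timp2*, and they were the 6 highest members in each of the 4 libraries. At least 1 FPKM was reached by 16 of 22 MMPs, 14 of 19 ADAMTS enzymes and 4 of 4 TIMPs. The other 11 stayed below 1 FPKM in every library, with a highest value of 0.852 FPKM for *Adamts8*. They were *Mmp1a*, *Mmp1b*, *Mmp7*, *Mmp10*, *Mmp21*, *Mmp27*, *Adamts8*, *Adamts13*, *Adamts16*, *Adamts19* and *Adamts20*. *Mmp1b* was listed at 0 in all 4 libraries and *Mmp7* in 3, while *Mmp20*, not a member, ran from 0.0137 FPKM in wild-type parietal to 2.26 FPKM in *Twist1*+/- frontal.

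**Figure D1:**
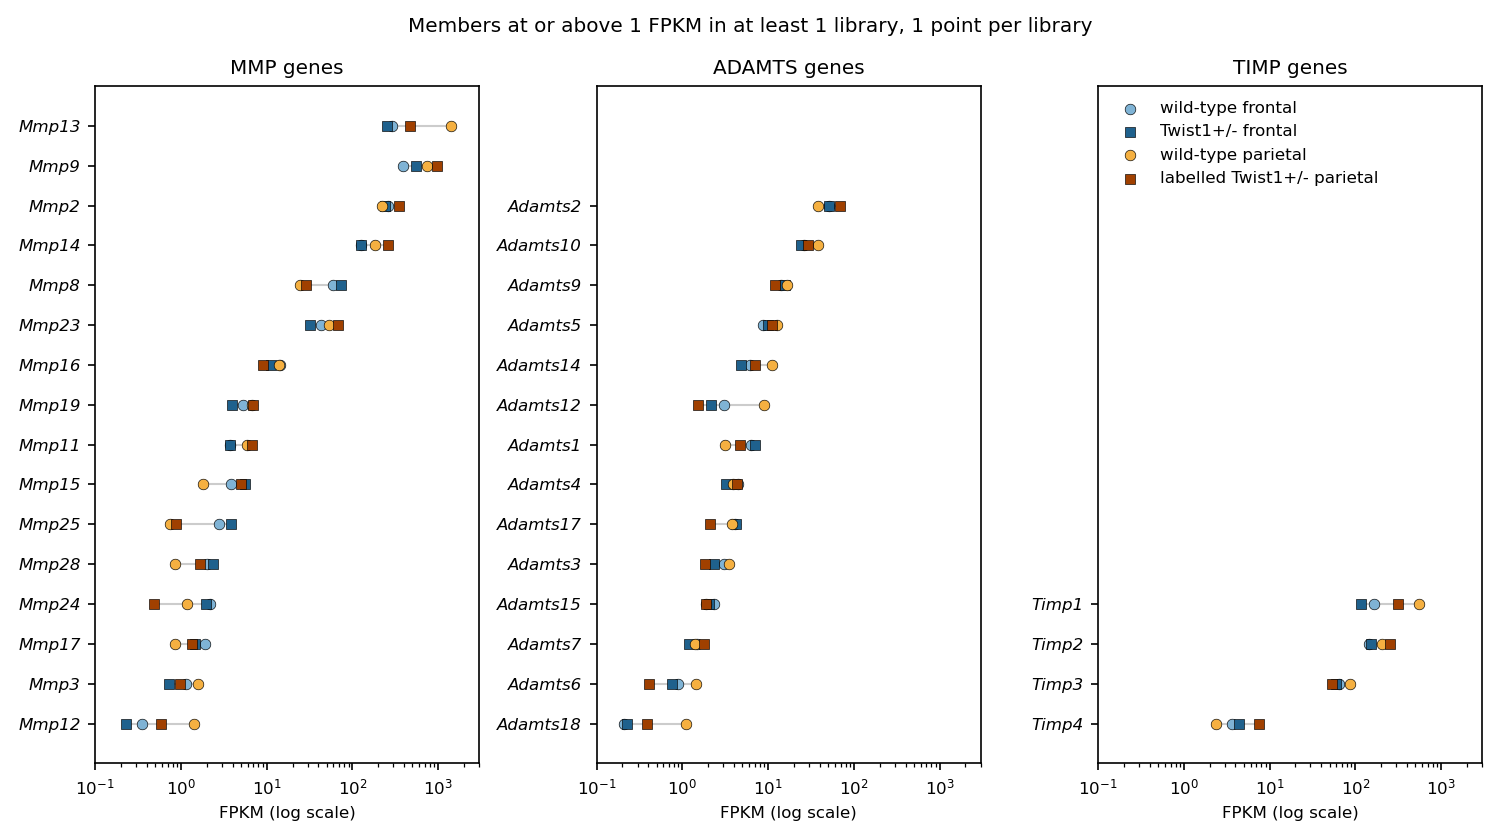
FPKM of the 34 genes that reached 1 FPKM in at least 1 library, on a log axis, with 1 point for each of the 4 libraries. The 6 genes that reached 100 FPKM lie at the high end, and *Mmp13*, *Timp1* and *Adamts12* show their highest point in wild-type parietal bone.

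Collagenases cut fibrillar collagen across its triple helix. *Mmp13* was at 290 FPKM in wild-type frontal, 253 in *Twist1*+/- frontal, 1409 in wild-type parietal and 470 FPKM under the label *Twist1*+/- parietal. *Mmp8*, the collagenase stored in neutrophil granules, was at 59.1, 73.0, 24.7 and 28.8 FPKM in the same order. The highest value of *Mmp13* was thus in wild-type parietal bone, where *Mmp8* had its lowest. *Mmp1a* and *Mmp1b*, the mouse genes related to human interstitial collagenase, stayed at or below 0.270 FPKM.

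Gelatinases cut denatured collagen and type IV collagen. *Mmp9* was at 393 FPKM in wild-type frontal, 547 in *Twist1*+/- frontal, 747 in wild-type parietal and 971 FPKM under the label *Twist1*+/- parietal. *Mmp2* was at 259, 239, 224 and 345 FPKM in that order. *Mmp9* was higher in both parietal libraries than in both frontal ones, whereas *Mmp2* stayed within 1.54-fold over the 4 libraries. *Mmp9* ranked first among the members in every library except wild-type parietal, where *Mmp13* ranked first and was the 58th most abundant of all genes.

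Among the membrane-type MMPs, *Mmp14*, the activator of proMMP2 and a collagenase at the cell surface, was the highest, with 127 FPKM in wild-type frontal, 125 in *Twist1*+/- frontal, 183 in wild-type parietal and 258 FPKM under the label *Twist1*+/- parietal. *Mmp16* ranged from 9.09 to 14.3 FPKM and was lowest in the library labelled *Twist1*+/- parietal. *Mmp15* was at 3.88, 5.53, 1.80 and 4.97 FPKM, and wild-type parietal bone had the lowest value. *Mmp17*, which is tethered to the membrane by a lipid anchor, ranged from 0.860 to 1.90 FPKM. The stromelysin group was low, apart from *Mmp11* at 3.73 to 6.78 FPKM, with *Mmp3* at 0.733 to 1.57 FPKM. Of the remaining MMPs, *Mmp23* ranged from 32.4 to 68.2 FPKM, *Mmp19* from 3.90 to 6.89 FPKM and *Mmp28* from 0.855 to 2.396 FPKM. *Mmp23* and *Mmp19* were lowest in *Twist1*+/- frontal and highest in the library labelled *Twist1*+/- parietal, and *Mmp28* was lowest in wild-type parietal.

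In the ADAMTS family the procollagen N-proteinase *Adamts2*, which removes the amino propeptide of fibrillar procollagens, was the highest, at 37.6 to 68.3 FPKM. Its relatives *Adamts14* and *Adamts3* ranged from 4.86 to 11.1 FPKM and from 1.85 to 3.51 FPKM. Next to *Adamts2* in level was *Adamts10*, which binds fibrillin, at 24.4 to 37.8 FPKM. The enzymes that cut aggrecan and versican were headed by *Adamts9* at 12.1 to 16.6 FPKM and *Adamts5* at 8.63 to 12.8 FPKM. *Adamts1* ranged from 3.14 to 6.96 FPKM, *Adamts4* from 3.22 to 4.50 FPKM and *Adamts15* from 1.86 to 2.33 FPKM. Of these 5 proteoglycan-cutting enzymes, 4 stayed within 2-fold over the 4 libraries, and *Adamts1* spanned 2.21-fold. *Adamts17* ranged from 2.11 to 4.19 FPKM and *Adamts7*, which cuts cartilage oligomeric matrix protein, from 1.20 to 1.79 FPKM.

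The inhibitors differed widely in level among themselves. *Timp1* was at 167 FPKM in wild-type frontal, 116 in *Twist1*+/- frontal, 552 in wild-type parietal and 318 FPKM under the label *Twist1*+/- parietal. *Timp2*, which also takes part in activation of proMMP2 with MMP14, was at 144, 151, 202 and 253 FPKM in that order. *Timp3*, the matrix-bound inhibitor, ranged from 52.8 to 86.8 FPKM. *Timp4* was the lowest of the 4, at 2.35 to 7.63 FPKM. Like *Mmp13*, *Timp1* was higher in both parietal than in both frontal libraries and highest in wild-type parietal.

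On chromosome 9, 9 of the MMP genes lie side by side within 427 kb (7272514 to 7699585, mm9), in the order *Mmp13*, *Mmp12*, *Mmp1b*, *Mmp3*, *Mmp1a*, *Mmp10*, *Mmp8*, *Mmp27* and *Mmp7*. Neighbours in this cluster differed greatly in level. *Mmp13* and *Mmp8* were the only ones above 10 FPKM, *Mmp3* and *Mmp12* peaked at 1.57 and 1.43 FPKM, and the other 5 stayed below 1 FPKM. *Mmp13*, *Mmp12* and *Mmp3* had their highest value in wild-type parietal bone, as had *Mmp1a*, *Mmp10* and *Mmp7* at levels below 1 FPKM, while *Mmp8*, 286 kb from the start of *Mmp13*, had its lowest there. *Mmp3* and *Mmp10* share 3.77% and 3.95% of their 75-base windows, and *Mmp1a* and *Mmp1b* share 4.52% and 6.40%, so a small share of their reads could not be placed with certainty. *Mmp12* and *Mmp1b* overlap on opposite strands.

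The windows of 100 bases that precede the annotated starts of these genes are shown because letters of the AP-1 motif, to which FOS and JUN proteins bind, were shared by most of the cluster. Sequences and starts are from RefSeq on GRCm38.p6, all on chromosome 9, and each reads from 5′ to 3′ on the strand of its gene. The letters TGANTCA, searched on both strands and which read the same way on each apart from the central base, stand in capitals.
Mmp13: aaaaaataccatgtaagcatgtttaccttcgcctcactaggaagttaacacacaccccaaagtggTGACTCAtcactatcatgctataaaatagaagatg
Mmp12: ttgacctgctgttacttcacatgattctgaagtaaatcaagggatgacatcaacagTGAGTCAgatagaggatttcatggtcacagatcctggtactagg
Mmp1b: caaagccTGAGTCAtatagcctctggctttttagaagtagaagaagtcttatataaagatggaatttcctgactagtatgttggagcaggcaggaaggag
Mmp3: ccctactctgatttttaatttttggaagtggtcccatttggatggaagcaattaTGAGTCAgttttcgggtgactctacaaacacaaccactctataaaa
Mmp1a: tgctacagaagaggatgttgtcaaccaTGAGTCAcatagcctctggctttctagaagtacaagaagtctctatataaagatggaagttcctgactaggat
Mmp10: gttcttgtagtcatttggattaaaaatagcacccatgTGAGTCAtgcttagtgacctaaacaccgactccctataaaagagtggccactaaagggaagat
Mmp8: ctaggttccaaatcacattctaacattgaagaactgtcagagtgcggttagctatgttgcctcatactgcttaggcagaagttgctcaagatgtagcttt
Mmp27: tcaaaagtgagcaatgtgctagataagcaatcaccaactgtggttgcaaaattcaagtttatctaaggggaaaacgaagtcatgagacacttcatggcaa
Mmp7: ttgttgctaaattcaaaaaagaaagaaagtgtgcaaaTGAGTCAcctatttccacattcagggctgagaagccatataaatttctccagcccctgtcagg
The letters TGANTCA were found in the 250 bases before the start of 7 of the 9 cluster genes, between positions -93 and -35 from the start. None of the 22 other members with a RefSeq promoter held them in that window, and 6.75% of all 32851 promoters did. In 6 of the 7 the site read TGAGTCA as written, and in *Mmp13* it read TGACTCA, which is TGAGTCA on the other strand. *Mmp8* and *Mmp27* held no match. Genes with the letters covered the range from *Mmp1b*, listed at 0 everywhere, to *Mmp13*, so the letters did not separate high from low members. The window of *Mmp13* lies at chr9:7272414-7272513, and for *Mmp12* and *Mmp7* the annotated start whose window holds the letters is shown.

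E-box letters CANNTG, to which TWIST1 and other basic helix-loop-helix factors can bind, were found in 24 of the 34 promoter windows of 31 members and in 66.2% of all promoters. The letters TGTGGT, read by RUNX factors, were found in 6 of 34 and in 14.0% of all promoters, both strands being searched. In *Mmp13* an E-box CAGATG stood at -192, the RUNX letters as ACCACA at -118 and the AP-1 letters at -35. A match of letters describes the sequence and is not a measured binding site.

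**Figure D2:**
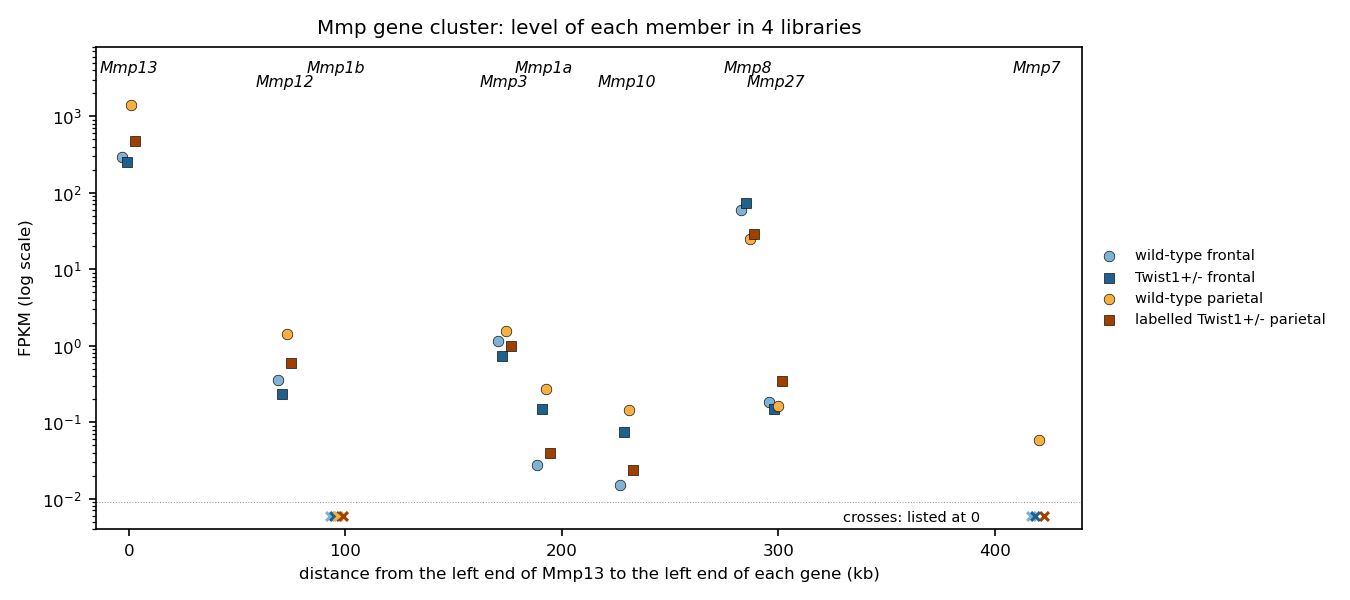
FPKM of the genes of the chromosome 9 cluster in the 4 libraries, on a log axis, against distance from the start of *Mmp13* in kilobases. *Mmp13* and *Mmp8* stand above their neighbours, with the highest point of *Mmp13* and the lowest point of *Mmp8* both in wild-type parietal bone.

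Wild-type parietal bone was first set against wild-type frontal bone, to describe how these genes differed between the mesoderm-derived and the neural crest-derived bone. Here and below a gene was counted as past 3-fold when the FPKM ratio exceeded 3 in either direction and at least 1 FPKM was reached, a description of size with no test. Of 34 members at that level, 5 were past 3-fold (14.7%), against 13.3% of 14214 genes, which is close to the background. Higher in parietal bone were 4 members, with 4.07% of all genes past 3-fold in that direction, and lower was 1 member, with 9.2% of all genes. Scaled to equal *Gapdh*, the balance turned to 2 higher (*Mmp13* and *Adamts18*) and 4 lower (*Mmp25*, *Mmp8*, *Mmp17* and *Mmp28*). The share of all genes is not given at this scaling, which moves the ratios of all genes alike. The median log2 ratio of the members was 0.27 against -0.01 for all genes. Scaling to equal *Gapdh* lowers every log2 ratio by 0.44, which put the median of the members at -0.18. The median of all genes moves down by the same amount, so the distance between the 2 medians stays as it was.

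*Mmp13* (chromosome 9, 7272514 to 7283333, mm9, + strand, 10 exons) was 4.87-fold higher in wild-type parietal than in wild-type frontal bone, from 290 to 1409 FPKM. *Timp1* (chromosome X, 20447292 to 20451861, + strand, 6 exons) was 3.31-fold higher, from 167 to 552 FPKM, which placed it just inside the limit. With equal *Gapdh*, *Mmp13* stayed past 3-fold at a log2 ratio of 1.84, and *Timp1* at 1.28 did not. *Mmp12*, the macrophage elastase (chromosome 9, 7344381 to 7369499), had 0.353 FPKM in wild-type frontal, 0.232 in *Twist1*+/- frontal, 1.43 in wild-type parietal and 0.589 FPKM under the label *Twist1*+/- parietal, which made a log2 ratio of 2.01 between the wild-type bones. *Adamts18*, an enzyme with roles in eye and lung development (chromosome 8, 116221026 to 116372641), had 0.210, 0.223, 1.12 and 0.383 FPKM in that order, which made a log2 ratio of 2.41. These levels lie near the limit of 1 FPKM, and the differences of *Mmp12* and *Adamts18* in log2(FPKM + 1) were 0.84 and 0.81. With equal *Gapdh* the log2 ratio of *Mmp12* was 1.57, just within 3-fold.

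*Mmp25*, a membrane-anchored MMP made mainly by leukocytes and also called leukolysin (chromosome 17, 23766425 to 23782236), was the 1 member past 3-fold in the other direction, with 2.77 FPKM in the frontal and 0.755 FPKM in the parietal library, a log2 ratio of -1.88. *Mmp8* had a log2 ratio of -1.26. Just outside the limit lay *Adamts12*, which was 2.89-fold higher in wild-type parietal bone.

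Marker lists of several cell types moved in the same comparison, and in bulk RNA fewer cells of a type and less RNA per cell cannot be told apart. All 10 osteoclast markers were higher in wild-type parietal than in wild-type frontal bone, 6 of them past 3-fold, with sums of 8536 and 2288 FPKM. None of the 12 neutrophil markers measured was higher there, 5 were past 3-fold lower, and their sums were 7799 FPKM in parietal and 15917 FPKM in frontal. Of 11 muscle markers, 10 were past 3-fold higher, and of 10 brain markers, 9 were past 3-fold lower. Chondrocyte markers (11 measured) had 4 past 3-fold higher and 1 lower, although their sum was lower in parietal, 141 against 355 FPKM. Whether these cell types had a part in the values of *Mmp13*, *Timp1*, *Mmp8* or *Mmp25* was not tested.

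*Timp1* lies within *Syn1* on the opposite strand. The study states that a stranded library kit was used, but the strand setting for counting is not given in the sources used here. Whether reads of the 2 genes were kept apart in counting is therefore not known. *Syn1*, a neuronal gene, had 16.2 FPKM in the frontal and 1.32 FPKM in the parietal library, the reverse of the order of *Timp1*. In the annotation 17 members overlap a gene on the opposite strand, so the same limit holds for others. *Mmp28* overlaps *1700020L24Rik*, which ranged from 3.45 to 10.1 FPKM and was also lowest in wild-type parietal. *Mmp24* overlaps *BC029722*, which ranged from 17.8 to 29.0 FPKM.

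**Figure D3:**
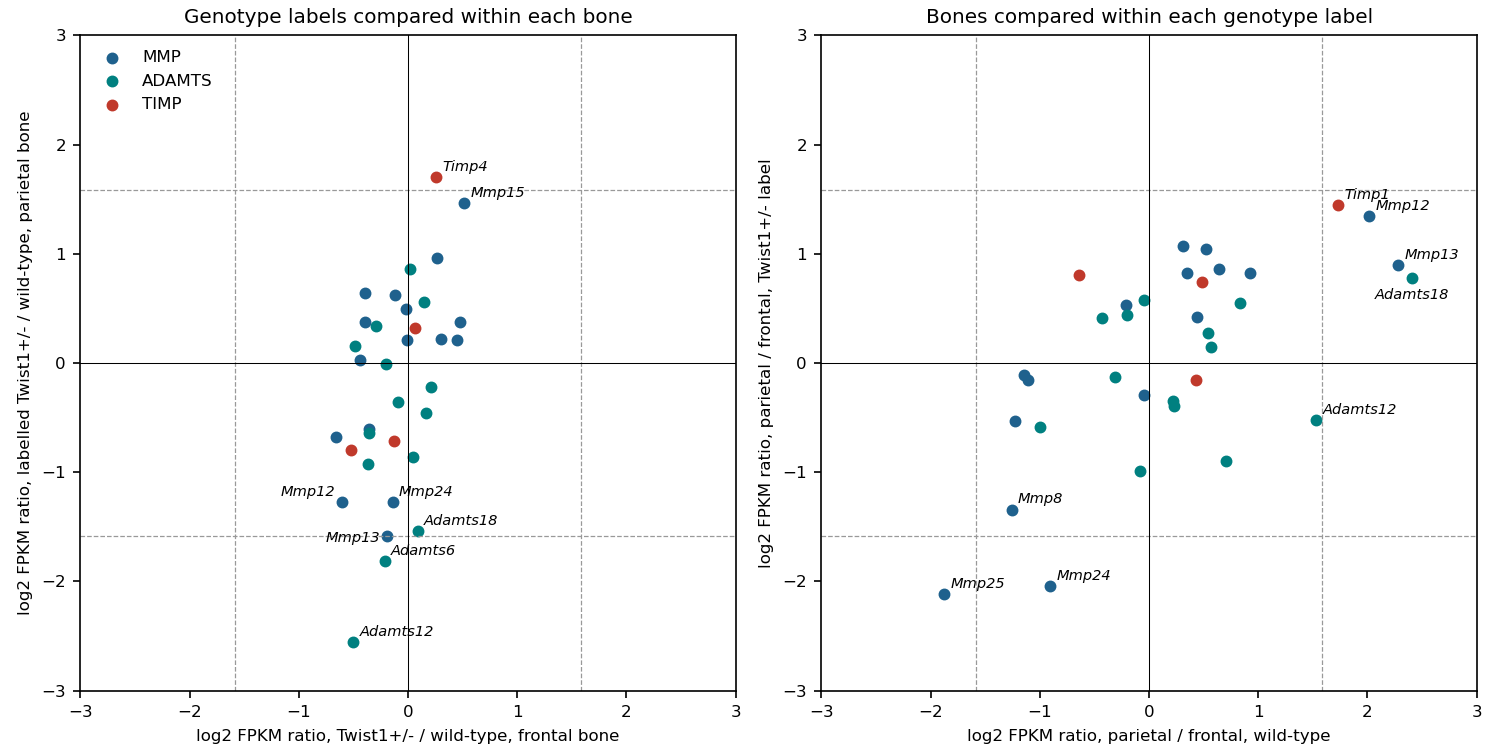
Log2 ratios of FPKM for the 34 members that reached 1 FPKM, 1 point a gene, with *Twist1*+/- against wild-type ratios on the left (frontal on the x axis, parietal on the y axis) and parietal against frontal ratios on the right (wild-type on the x axis, *Twist1*+/- labels on the y axis). Dashed lines mark 3-fold, and *Adamts12* lies below the lower line for the parietal pair and well within the lines for the frontal pair.

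The library labelled *Twist1*+/- parietal was next set against wild-type parietal bone. Of 33 members, 3 were past 3-fold (9.09%), against 8.19% of 13914 genes, again close to the background. The 1 higher member compares with 5.25% of all genes higher, and the 2 lower members with 2.94% of all genes lower. Scaled to equal *Gapdh*, 2 were higher (*Timp4* and *Mmp15*) and 1 lower (*Adamts12*), with no share of all genes given at this scaling. Members divided evenly, with 16 ratios above 1 and 17 below, and their median log2 ratio was -0.01 against -0.06 for all genes. This comparison and the comparison between wild-type bones share the wild-type parietal library, so a value peculiar to that library enters both.

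*Adamts12* (chromosome 15, 10994545 to 11276622, mm9, + strand, 24 exons), an enzyme that cuts cartilage oligomeric matrix protein, was at 3.08 FPKM in wild-type frontal, 2.18 in *Twist1*+/- frontal, 8.91 in wild-type parietal and 1.52 FPKM under the label *Twist1*+/- parietal. Its parietal log2 ratio, -2.56, was the most negative among members that reached 1 FPKM in either library, against -0.50 between the frontal bones. Wild-type parietal bone was the highest of its 4 libraries and the library labelled *Twist1*+/- parietal the lowest. Its promoter is shown because, among the 26 members at or above 1 FPKM in all libraries, *Adamts12* had the largest difference between the genotype ratios of both bones. The window is chr15:11064523-11064772 on GRCm38.p6 from RefSeq, + strand, with an E-box in capitals.
Adamts12: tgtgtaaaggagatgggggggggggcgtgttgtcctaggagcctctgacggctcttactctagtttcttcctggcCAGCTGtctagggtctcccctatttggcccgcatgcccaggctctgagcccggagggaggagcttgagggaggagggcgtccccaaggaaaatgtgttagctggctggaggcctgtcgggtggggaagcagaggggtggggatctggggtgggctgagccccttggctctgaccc
The E-box CAGCTG stood at -175 from the start and was the only CANNTG match, and no TGANTCA or TGTGGT was found in this window.

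*Adamts6* (chromosome 13, 105077953 to 105284843), a relative of *Adamts10*, was at 0.879, 0.757, 1.43 and 0.407 FPKM in the order used above, so wild-type parietal was again highest and its *Twist1*+/- counterpart by label lowest. Its parietal log2 ratio was -1.82, and it was -1.29 after subtraction of the trend with GC content, within 3-fold. *Timp4* (chromosome 6, 115195634 to 115201867, minus strand, 5 exons), an inhibitor best known from heart, brain and fat, was at 3.66, 4.37, 2.35 and 7.63 FPKM. It was 3.25-fold higher in the library labelled *Twist1*+/- parietal than in wild-type parietal, just inside the limit. *Syn2*, which holds *Timp4* on the opposite strand, was at 1.37 and 3.26 FPKM in the same 2 libraries.

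*Mmp13* fell just outside the limit in this comparison, 2.997 times lower in the library labelled *Twist1*+/- parietal. *Adamts18* had a log2 ratio of -1.54 and *Mmp12* of -1.28, from levels near the limit of 1 FPKM. *Timp1* had a log2 ratio of -0.80 and *Timp3* of -0.72. Higher without passing 3-fold were *Mmp15*, with a log2 ratio of 1.47, *Adamts2* with 0.86, *Mmp2* with 0.62 and *Mmp14* with 0.50. The gelatinases and *Mmp14* thus had ratios above 1 while *Mmp13* and *Timp1* had ratios below 1.

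Beside these values, the osteoclast markers summed to 5837 FPKM under the label *Twist1*+/- parietal against 8536 FPKM in wild-type parietal, and 1 of 10 was higher. Chondrocyte markers had 5 of 11 past 3-fold lower and 1 higher, with *Matn1* at 0 under that label, although their sum was higher there, 327 against 141 FPKM. All 12 neutrophil markers were higher, 3 of them past 3-fold, and 5 of 10 brain and 8 of 10 nasal epithelium markers were past 3-fold higher. Their part in the values of *Adamts12*, *Mmp13* and *Timp4* was not tested. Ratios between the parietal libraries also moved with the GC content of transcripts, from a median log2 ratio of -0.58 in the lowest of 20 GC groups to 0.61 in the highest, with a Spearman correlation of 0.564 across 11520 genes, which are not replicates. After subtraction of that trend the log2 ratios were -2.38 for *Adamts12*, 1.65 for *Timp4* and -1.005 for *Mmp13*.

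Between *Twist1*+/- and wild-type frontal bone, no member differed by more than 3-fold. The 31 members at or above 1 FPKM all stayed within 2-fold, as did 92.8% of all genes, and 3.89% of 14341 genes were past 3-fold, 3.17% higher and 0.725% lower. Ratios ran from a log2 value of -0.66 for *Mmp3* to 0.51 for *Mmp15*, with 12 above 1 and 19 below, and a median of -0.12 against -0.04 for all genes. *Mmp9* had a log2 ratio of 0.48, *Timp1* of -0.52 and *Mmp13* of -0.19. Muscle markers were past 3-fold higher in 11 of 11 genes in this comparison and nasal epithelium markers in 8 of 10, while no osteoclast, chondrocyte or neutrophil marker passed 3-fold. *Twist1* itself was at 30.4 against 59.0 FPKM in this pair, the pair in which its level followed the labels.

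Set against *Twist1*+/- frontal bone, the library labelled *Twist1*+/- parietal had 2 of 30 members past 3-fold (6.67%), against 4.09% of 14305 genes. None was higher, with 0.846% of all genes higher, and 2 were lower, with 3.24% of all genes lower. *Mmp24*, a membrane-type MMP of the nervous system (chromosome 2, 155601078 to 155644102), was 4.12 times lower. It was at 2.18 FPKM in wild-type frontal, 1.98 in *Twist1*+/- frontal, 1.17 in wild-type parietal and 0.481 FPKM under the label *Twist1*+/- parietal. *Mmp25* measured 3.79 FPKM in *Twist1*+/- frontal and 0.874 FPKM under the label *Twist1*+/- parietal, a log2 ratio of -2.12 next to -1.88 between the wild-type bones. Frontal bone thus had the higher *Mmp25* value with both genotype labels.

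The 4 members past 3-fold higher between the wild-type bones had smaller ratios here, unlike *Mmp25*. They were picked by their large ratios there, so smaller ratios in another pair can follow from that choice alone. *Mmp12* and *Adamts18* stayed below 1 FPKM in both libraries of this pair. *Mmp13* was 1.86-fold and *Timp1* 2.73-fold higher in the library labelled *Twist1*+/- parietal, with log2 ratios of 0.89 and 1.45. *Adamts12* went from a log2 ratio of 1.53 between the wild-type bones to -0.52 here, and *Mmp12* from 2.01 to 1.35. *Mmp9*, by contrast, had log2 ratios of 0.93 and 0.83 and *Mmp8* of -1.26 and -1.34. *Mmp14* had 0.52 between the wild-type bones and 1.04 between the bones labelled *Twist1*+/-. Ratios of this pair moved with GC content as well, from a median log2 ratio of -0.43 in the lowest GC group to 0.42 in the highest. With the trends subtracted, *Mmp12* was at 1.90 between the wild-type bones and 1.77 here, and *Mmp13* at 2.16 and 1.23. Neutrophil markers were lower in parietal bone here too, with 1 of 12 higher, and the 10 osteoclast markers were all higher, with none past 3-fold. Whether they had a part in the values of *Mmp8*, *Mmp25* and *Mmp9* was not tested.

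**Figure D4:**
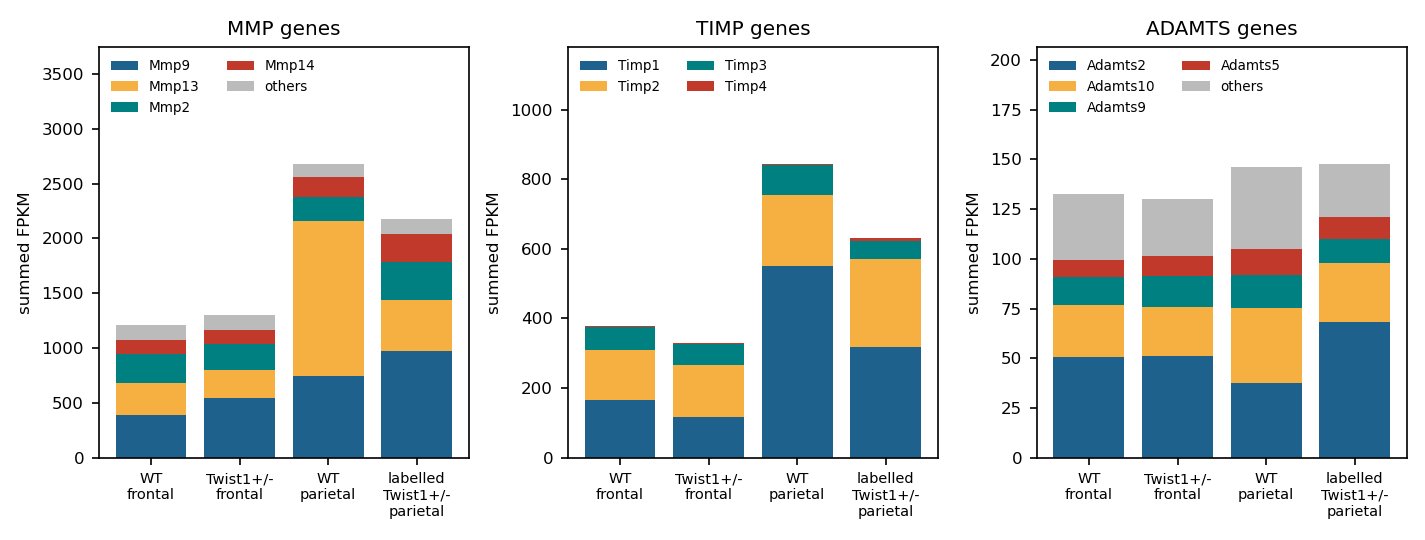
Summed FPKM of the MMPs, the TIMPs and the ADAMTS enzymes in the 4 libraries, with the genes that make up most of each sum drawn apart. The MMP sum is 2676 FPKM in wild-type parietal bone, of which *Mmp13* makes 52.7%, and the ADAMTS sum runs from 130.2 to 147.6 FPKM.

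Summed over the class, MMPs came to 1209 FPKM in wild-type frontal, 1305 in *Twist1*+/- frontal, 2676 in wild-type parietal and 2175 FPKM under the label *Twist1*+/- parietal. TIMPs came to 379, 330.2, 843 and 630.5 FPKM, and ADAMTS enzymes to 133, 130.2, 146 and 147.6 FPKM. The parietal libraries thus had higher MMP and TIMP sums than the frontal ones, while the ADAMTS sums lay close together on the deposited scale. FPKM summed over all genes was also higher in the parietal libraries, at 496064, 519359, 701440 and 650727 in the order above. The class sums are not adjusted for these totals. The size of the rises and the closeness of the ADAMTS sums are therefore those of the deposited scale only. *Mmp9*, *Mmp13*, *Mmp2* and *Mmp14* together made up 88.5% to 95.8% of the MMP sum. *Adamts2* and *Adamts10* made up 51.6% to 66.2% of the ADAMTS sum, and *Timp1* made up 35.2% to 65.5% of the TIMP sum. A sum of FPKM follows its most abundant genes and is not a measure of enzyme activity.

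Wild-type parietal bone differed in which MMP led. *Mmp13* was 52.7% of its MMP sum against 24.0% in wild-type frontal, 19.4% in *Twist1*+/- frontal and 21.6% in the library labelled *Twist1*+/- parietal. *Mmp9* was 27.9% there against 32.5%, 41.9% and 44.6%. The ratio of the MMP to the TIMP sum was 3.19 in wild-type frontal, 3.95 in *Twist1*+/- frontal, 3.17 in wild-type parietal and 3.45 in the library labelled *Twist1*+/- parietal. Without *Mmp13* the ratio was 2.43, 3.19, 1.503 and 2.70, lowest in wild-type parietal.

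The profile of each member over the 4 libraries was compared with the mean profile of 14 marker lists, for the 21 members above 0 in all libraries and at or above 5 FPKM in 1. Likeness was the root mean square distance between centred log2 profiles, over 4 points, given as a description. The osteoblast mean used 7 genes, without *Col1a1* and *Col1a2*, which were listed at 0 in some libraries. *Mmp8* was nearest to the neutrophil list, at a distance of 0.323. *Timp1* was nearest to the osteoclast list at 0.366, close to a tie with the chondrocyte list at 0.384. *Mmp13* was nearest to the chondrocyte list at 0.387, followed by the osteocyte list at 0.455, and *Adamts12* had the same order at 0.555 and 0.602. *Mmp23* at 0.111, *Mmp11* at 0.139, *Mmp19* at 0.155 and *Mmp14* at 0.170 were nearest to the fibroblast list. For each of them the osteoblast list came next, at 0.156 for *Mmp11* to 0.198 for *Mmp23*. *Mmp9*, *Mmp2*, *Timp2* and *Adamts5* were nearest to the osteoblast list, at 0.0915 for *Timp2* to 0.273 for *Mmp9*. Nearest to the macrophage list were 5 members, among them *Timp3* at 0.107 and *Adamts10* at 0.124. *Adamts9*, also among them, lay at 0.261 with a root mean square spread of only 0.177, so its nearest list says little. *Timp4* lay at 0.501 from its nearest list, the endothelial one.

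**Figure D5:**
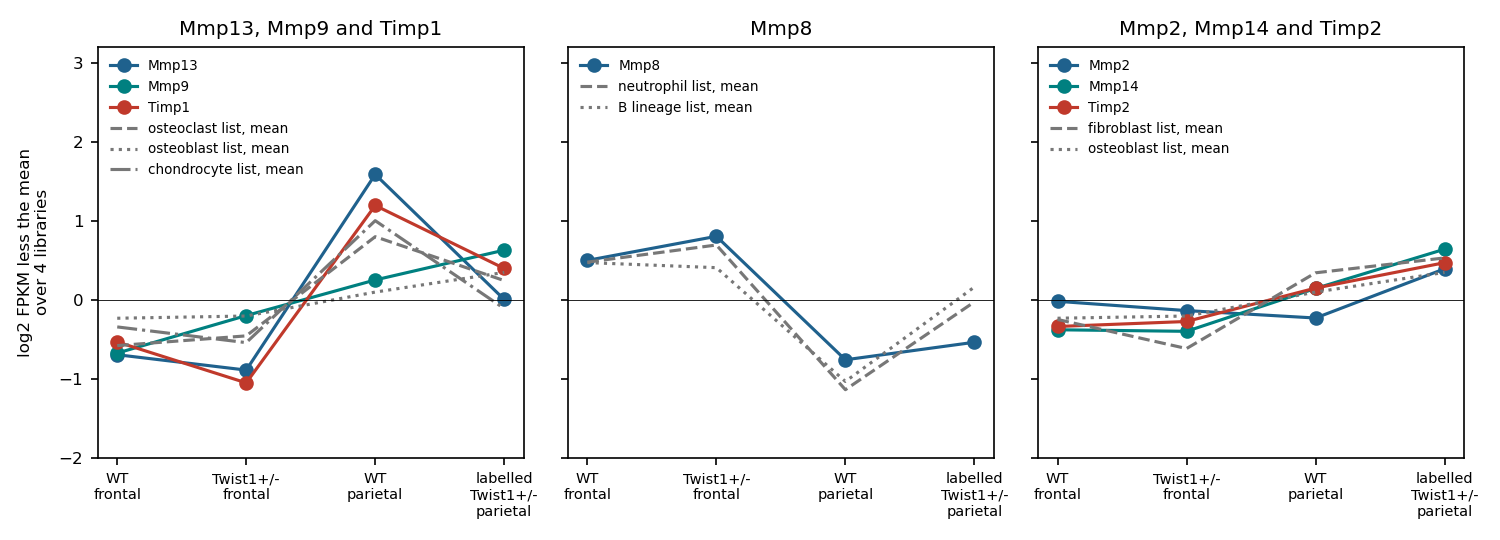
Centred log2 FPKM of selected members and of the mean of marker lists over the 4 libraries, with lines drawn only to guide the eye. *Mmp8* and the neutrophil markers are both lowest in wild-type parietal bone, where *Timp1* and *Mmp13* peak.

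Genes that work with these enzymes were given by lists of the pathway. Only genes that reached 1 FPKM in a comparison could pass 3-fold. These were 15 to 17 of the activators and inhibitors, 4 or 5 of the ADAMTS-like proteins and 12 or 13 of the related metalloproteinases. Of all genes, 3.89% to 13.3% were past 3-fold, depending on the comparison. Of 18 activators and inhibitors, such as *Furin*, the plasminogen activators and the membrane inhibitor *Reck*, only *Spock3* passed 3-fold in any of the 4 comparisons, lower in the library labelled *Twist1*+/- parietal than in *Twist1*+/- frontal. Of 7 ADAMTS-like proteins, which resemble ADAMTS enzymes without the protease part, *Adamtsl3* passed 3-fold, from 1.84 FPKM in the frontal to 0.593 FPKM in the parietal wild-type library. *Adamtsl1* ranged from 1.48 to 3.18 FPKM, *Adamtsl4* from 1.98 to 3.93 FPKM and *Adamtsl5* from 1.54 to 3.53 FPKM, none past 3-fold. Among 15 related metalloproteinases *Adam28* alone passed 3-fold, higher in *Twist1*+/- than in wild-type frontal bone and lower in the library labelled *Twist1*+/- parietal than in *Twist1*+/- frontal.

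Of 17 matrix substrates, 16 reached 1 FPKM in wild-type parietal or wild-type frontal bone. Past 3-fold in parietal against frontal were 3 higher and 3 lower, next to 4.07% of all genes higher and 9.2% lower. Higher were *Col2a1*, *Ibsp* and *Eln*, and lower were the brain proteoglycans *Bcan* and *Ncan* and the ADAMTS13 substrate *Vwf*. *Eln*, the gene for elastin, was at 27.8 FPKM in wild-type frontal, 37.8 in *Twist1*+/- frontal, 136 in wild-type parietal and 49.4 FPKM under the label *Twist1*+/- parietal. *Vcan*, the gene for versican, was at 15.3, 15.2, 39.0 and 12.7 FPKM in that order, and was past 3-fold lower between the parietal libraries, where *Bcan* was past 3-fold higher. *Eln* and *Vcan* therefore had their highest value in wild-type parietal bone, as had *Mmp13*, *Timp1* and *Adamts12*. So had *Acan*, *Matn3*, *Fbn1*, *Col2a1*, *Col3a1*, *Spp1* and *Ibsp*. *Bcan*, *Ncan*, *Vwf*, *Fbn2*, *Col4a2* and *Fn1* instead had their lowest value there. *Comp*, the gene for cartilage oligomeric matrix protein, was at 2.74, 4.56, 5.94 and 12.4 FPKM in the order given for *Eln*. It was highest under the label *Twist1*+/- parietal, where *Adamts12* was lowest. In wild-type parietal, where *Adamts12* was highest, *Comp* was also above both frontal libraries. A relation between the 2 genes was not tested. Between the frontal bones *Ncan* was past 3-fold lower, at 4.26 against 14.1 FPKM.

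Of 15 transcription factors known at MMP promoters, 14 reached 1 FPKM in each comparison. *Cebpb* alone passed 3-fold, at 31.1 FPKM in wild-type parietal and 102 FPKM under the label *Twist1*+/- parietal. *Fos*, of the AP-1 family, was at 8.13 FPKM in wild-type frontal, 8.95 in *Twist1*+/- frontal, 18.6 in wild-type parietal and 12.7 FPKM under the label *Twist1*+/- parietal. *Runx2* ranged from 25.3 to 37.5 FPKM. *Fos* was highest in wild-type parietal bone, and neither gene differed by more than 3-fold. The other AP-1 genes listed did not share that peak. *Jun*, *Junb*, *Jund* and *Fosl2* were highest under the label *Twist1*+/- parietal, and *Fosb* and *Fosl1* in wild-type frontal. *Jund*, for example, was at 34.4 FPKM in wild-type parietal and 86.1 FPKM under that label.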

How the data were processed

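RNA-seq of 4 libraries was analysed, 1 for each genotype and bone. As the study's methods and the submitters' notes state, poly(A) RNA was read as single-end reads of 75 bases, aligned to mm9 with STAR 2.4.2a and quantified with Cuffdiff (Cufflinks 2.2.1). The deposited values are FPKM, computed by the authors for 23946 gene symbols. The scaling option, the strand setting and the depth of each library (beyond an average stated by the study) are not given in the sources used here, so no counting interval was computed. Libraries were grouped by their labels.

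FPKM ratios were formed in Python 3.11.15 with numpy 2.4.6 and pandas 2.3.3. A gene was counted as past 3-fold when the ratio exceeded 3 either way with 1 FPKM or more on the higher side, and a gene at 0 in 1 library and at least 1 FPKM in the other was counted without a ratio. With 1 library a group, no test was made. Only the 3-fold rule was tried on simulated data, a changed copy of the wild-type frontal library. The changes put in were large and in genes at or above 10 FPKM, so small changes and low levels were not tried. Every member at or above 1 FPKM in a library was named, and each past 3-fold was given in all 4 libraries. The members and gene lists were chosen with earlier results of these data known. Positions, exons and GC content came from GENCODE M1 on mm9, which matched all 45 members and is not the annotation the authors used. As alternatives, 0.1 or 1 FPKM was added to each value, the floor was dropped or raised to 10 FPKM, and a 2-fold limit, scaling to equal median or *Gapdh*, and subtraction of the GC trend were tried.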

Additional observations from a re-analysis of the deposited data

Results flagged for a closer look

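*Adamts12* differed between the genotype labels in its ratio of parietal to frontal bone. It was higher in parietal bone between the wild-type libraries, with a log2 ratio of 1.53. Under the *Twist1*+/- labels the log2 ratio was -0.52, from 1.52 FPKM in parietal against 2.18 FPKM in frontal. The order of these close values cannot be told from 1 library each, so a change of direction is not shown. The 2 ratios had a difference of 2.06. With 1 library a group this difference was not tested. A difference of more than 3-fold between the 2 ratios was found for 596 of 12291 genes at or above 1 FPKM in all libraries (4.85%), and for 1 of 26 members, *Adamts12*. *Mmp13*, with a difference of -1.39 when the genotype ratio in frontal bone was subtracted from that in parietal bone, lay within 3-fold. Since the library labelled *Twist1*+/- parietal held *Twist1* at 50.7 FPKM against 52.5 in wild-type parietal, genotype and other differences between these libraries cannot be told apart.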

How the results depend on the processing

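The counts of members past 3-fold (3 between the parietal, 0 between the frontal, 5 between the wild-type and 2 between the *Twist1*+/- labelled bones) moved with the floor and the pseudocount. A pseudocount of 1 FPKM left 1 between the parietal, 2 between the wild-type and 0 between the *Twist1*+/- labelled bones. Without a floor they were 8, 2, 10 and 4 in the order above. With a floor of 10 FPKM they were 0 between the parietal, 2 between the wild-type and 0 between the *Twist1*+/- labelled bones. With a 2-fold limit they were 8, 11 and 6 for the same 3 comparisons. Within 2-fold were 75.8%, 67.6% and 80.0% of the members in these comparisons, against 79.8%, 73.1% and 88.1% of all genes. No share of all genes is given for the other settings, so those counts describe the settings and not the members. Of 36 member counts under the alternatives, 23 stayed within 1.5 times. The median log2 ratio of the members became 0.38 between the parietal and -0.18 between the wild-type bones when scaled to equal *Gapdh*. The log2 ratios of *Gapdh* itself were -0.39 and 0.44, and this scaling shifts all genes alike. Between the *Twist1*+/- labelled bones the median became 0.47 with a floor of 10 FPKM. Of 10 member ratios past 3-fold, none changed sign under the 5 alternatives run on them, and 39 of 50 values stayed past 3-fold. *Adamts12* between the parietal and *Mmp13* between the wild-type bones stayed past it in all 5, while *Timp1* between the wild-type bones was at 1.28 with equal *Gapdh*, and *Timp4* at 1.37 with a pseudocount of 1 FPKM.

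No paired analysis was possible because each group had 1 library and the labels give no replicate numbers. The study states its depth only as an average over replicates and not for each library, so no counting error is given for low values such as those of *Adamts6*, *Adamts18* and *Mmp12*.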
